A study of Homo sapiens with 12 samples.

Results

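This comparison set CsA against its control after 48 h in HK-2 cells, on 3 arrays of each group, 6 of the 12 arrays in the series. CsA is taken here to stand for ciclosporin, an immunosuppressant that can harm the kidney. Its dose and the vehicle given to the control cells are not in the labels. HK-2 is a single immortalised line from human proximal tubule epithelium, so all replicates share 1 genetic background. All cells grew in a defined medium with EGF, hydrocortisone, insulin, transferrin and selenite, and were treated while growing close to a full layer. Both groups therefore carried a growth factor and a glucocorticoid. The other 6 arrays held CsA and control after 12 h, again 3 each, and serve here only for comparison. The arrays are called biological replicates, but no label says that they came from separate cultures, so a p-value measures only the spread among these samples.

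Ciclosporin binds cyclophilins, enzymes that help proteins fold, and the complex blocks calcineurin, a phosphatase that switches on NFAT transcription factors. Cyclophilin B lies in the endoplasmic reticulum (ER) and cyclophilin D in mitochondria. In kidney tubule cells the drug is known for ER stress, altered cell division and fibrosis, and the proximal tubule is a site of its toxicity. ATF4 is a transcription factor made when the ER is stressed or amino acids run short, and its targets include amino acid transporters, biosynthetic enzymes and the factors ATF3 and DDIT3.

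At 48 h the leading genes were RCAN3, SLC40A1 and CTNNBIP1 among those higher under CsA and DBP, N4BP2L1 and MAPRE3 among those lower. Ribosomal protein genes were higher in all pairs in 14 of 20 cases, with slight differences, and ER-Golgi coat genes in 11 of 26, beside 13.3% of all genes. Genes of cholesterol synthesis were lower in all pairs in 10 of 18 cases and those of glycolysis in 9 of 19, beside 16.2% of all genes. ATF4 targets stood low on 1 CsA array only.

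Each array value is a log2 level, so a difference of 1 means a factor of 2 between linear levels. Arrays were paired by replicate number, and the difference in a pair is CsA minus control. Of 10650 genes tested, 3140 (29.5%) had a difference of the same sign in all 3 pairs. Pairs 1 and 2 had the same sign in 54.8% of genes, pairs 1 and 3 in 48.3% and pairs 2 and 3 in 56.0%. Higher under CsA in every pair were 1417 genes (13.3%), lower in every pair were 1723 (16.2%), and 7510 were mixed. Most differences of the genes of one sign were small. With every pair at 0.1 or more in size, 451 were higher and 570 lower. At 0.25 or more these numbers were 80 and 96, at 0.5 or more 7 and 9, and at 1 or more 0 and 0. Among all 10650 genes, every CsA array lay above every control array in 210 and below every control array in 264. Such genes are by definition of one sign. Genes of one sign were picked on the same differences, so their signs are a description and not a test. The split of higher against lower turned with the scaling. After each array was centred on the median of the tested genes, 1715 were higher and 1421 lower, which took the higher share from 45.1% to 54.7%.

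The paired limma fit called 0 of 10650 genes at an adjusted p under 0.05 (0%), with a smallest adjusted p of 0.80. At an unadjusted p under 0.05 it had 536 genes (5.03%), 224 higher and 312 lower. Nothing below is therefore a called difference between CsA and control at 48 h, and the genes are given by their values.

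The 6 arrays did not contribute alike. Pairs 1 and 2 had a spread of differences across genes of 0.25 and 0.24 (SD), and pair 3 had 0.47. Pair 3 held 117 genes higher and 322 lower by 1 or more. Pair 1 had 19 and 29 of these, and pair 2 had 18 and 19. Across genes the differences of pairs 1 and 2 correlated at 0.13, those of pairs 1 and 3 at -0.05 and those of pairs 2 and 3 at 0.14. At 12 h the same 3 values were 0.31, 0.39 and 0.33. Genes are not independent replicates, and these coefficients describe the arrays. Of the 439 genes at 1 or more in pair 3, 183 were under 0.25 in size in both other pairs, 32 of them higher and 151 lower. Array medians lay between 2.85 and 2.95 in all 12 arrays. CsA replicate 3 was the array least like its group. Its levels correlated across genes at 0.9301 and 0.9593 with CsA replicates 1 and 2, against 0.982 between these 2, and the controls lay between 0.9657 and 0.9858. Results that rest on pair 3 are given with the other pairs beside them.

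Cell type markers were compared with the label. All 6 epithelial markers, KRT8, KRT18, KRT19, KRT7, CDH1 and EPCAM, were above 4 on all 6 arrays. Of 11 proximal tubule markers, SLC3A1, PAX8 and CDH6 were above 4 throughout. The other 8, AQP1, CUBN and LRP2 among them, were below 4 on all 6 arrays, so these 8 were near background. All 4 measured leukocyte markers were below 4, as were 4 of 5 endothelial, 3 of 4 distal nephron and 2 of 4 podocyte markers. Of 7 fibroblast and pericyte markers, DCN, LUM, COL1A1 and ACTA2 were above 4, and PDGFRA, PDGFRB and COL3A1 were below. The summed log2 level of the 7 ran from 37.4 to 42.3 under CsA and from 38.2 to 42.1 in control, and its part in the results was not tested. In bulk RNA, fewer cells of a type and less RNA per cell cannot be told apart.

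**Figure D1:**
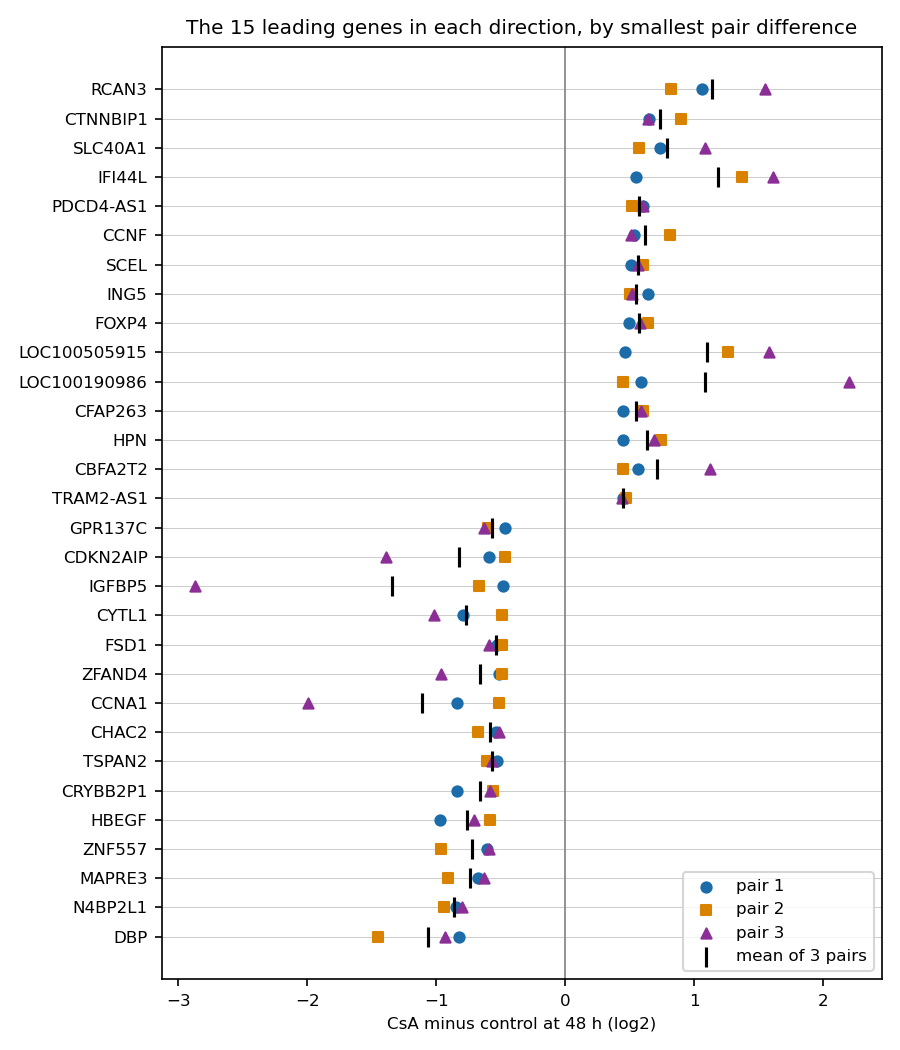
CsA minus control at 48 h (log2, x axis) for the 15 higher and 15 lower genes whose smallest pair difference was largest. Circles, squares and triangles are pairs 1, 2 and 3 and the black tick is their mean. No point is nearer to 0 than 0.44, and IGFBP5 (-2.87), LOC100190986 (2.20) and CCNA1 (-1.99) have a triangle far from the other pairs.

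Promoters are shown for 5 genes of one sign whose regulators bear on the lists below. RCAN3 led the higher genes and belongs to a family that regulates calcineurin. TNFAIP3 and IL6 are targets of NF-kB, DUSP1 is a phosphatase gene induced through cAMP and MAP kinase signals, and ATF3 is an ATF4 target. Each window holds the 250 bases before the first RefSeq start of the gene in GRCh38.p14, in the direction of transcription, so it lies upstream of the transcript that begins there. They lie at chr1:24502586-24502835 (plus strand), chr6:137867009-137867258 (plus strand), chr7:22726950-22727199 (plus strand), chr5:172771196-172771445 (minus strand) and chr1:212565157-212565406 (plus strand). Capitals mark 1 motif per gene, found on either strand. It is TGGAAA, the NFAT core, in RCAN3. It is GGGNNTTTC, part of the NF-kB site, in TNFAIP3 and IL6. It is TGACGTCA, the cAMP response element, in DUSP1, and TGATGNAA, where ATF4 pairs with a C/EBP protein, in ATF3.
RCAN3: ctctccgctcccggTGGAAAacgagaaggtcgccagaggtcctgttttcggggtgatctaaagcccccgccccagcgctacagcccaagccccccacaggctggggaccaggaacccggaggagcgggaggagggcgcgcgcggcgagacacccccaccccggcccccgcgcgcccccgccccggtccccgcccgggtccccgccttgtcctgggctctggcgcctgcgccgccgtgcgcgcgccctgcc
TNFAIP3: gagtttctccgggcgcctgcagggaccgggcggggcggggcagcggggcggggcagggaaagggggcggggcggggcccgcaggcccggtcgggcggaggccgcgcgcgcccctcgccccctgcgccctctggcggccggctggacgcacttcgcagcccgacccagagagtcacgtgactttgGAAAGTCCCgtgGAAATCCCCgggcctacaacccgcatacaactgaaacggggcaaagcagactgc
IL6: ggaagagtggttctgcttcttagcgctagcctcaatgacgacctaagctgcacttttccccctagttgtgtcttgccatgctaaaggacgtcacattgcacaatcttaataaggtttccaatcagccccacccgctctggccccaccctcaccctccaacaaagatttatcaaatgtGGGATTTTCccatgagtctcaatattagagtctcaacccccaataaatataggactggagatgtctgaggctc
DUSP1: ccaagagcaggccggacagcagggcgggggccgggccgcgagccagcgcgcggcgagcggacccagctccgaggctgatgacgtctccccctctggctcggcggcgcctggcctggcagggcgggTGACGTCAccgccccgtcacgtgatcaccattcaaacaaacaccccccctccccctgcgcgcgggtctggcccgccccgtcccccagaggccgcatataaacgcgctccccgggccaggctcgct
ATF3: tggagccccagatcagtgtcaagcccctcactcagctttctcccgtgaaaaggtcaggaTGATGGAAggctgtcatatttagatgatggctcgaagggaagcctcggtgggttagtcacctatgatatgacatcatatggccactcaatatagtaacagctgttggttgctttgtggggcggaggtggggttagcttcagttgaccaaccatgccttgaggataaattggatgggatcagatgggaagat
TNFAIP3 had 2 such strings, starting 66 and 54 bases before the start, and each overlapped a TGGAAA. The string began 73 bases before the start in IL6, 125 in DUSP1, 191 in ATF3 and 236 in RCAN3. No other motif of the 11 searched overlapped the marked strings.

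Motif shares are over windows of 300 bases, from 250 before to 50 after a start, for the 8805 tested genes with a window, 1166 of them higher and 1432 lower in all pairs. TGATGNAA was in 1.68% of all tested windows, in 1.29% of the higher genes and in 2.37% of the lower genes. Among the 252 genes lower by 1 or more in pair 3 it was in 12 windows (4.76%). TGACGTCA was in 3.33% of tested windows, 1.80% of the higher and 3.91% of the lower. GGGNNTTTC was in 4.80%, 3.86% and 5.31%, and TGGAAA in 14.7%, 16% and 15.2%. Over all 27305 windows of the table the shares of the 4 motifs were 3.67%, 1.98%, 4.73% and 21.1%. In the 252 genes of pair 3, TGACGTCA was in 4.37%, GGGNNTTTC in 5.16% and TGGAAA in 13.9%. For the other motifs searched, the share of tested windows is in brackets. TATAAA was in 7.94% of the 252 (5.13%), CCAAT in 42.5% (37.2%), GAANNTTC in 5.95% (4.52%) and CACGTG in 11.9% (10.8%). GGAATG was in 10.3% (10.3%), TGANTCA in 2.78% (4.26%) and TCACNCCAC in 0.794% (1.07%). A match describes letters only, and no test was made of these shares.

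Among the leading higher genes RCAN3, a relative of the calcineurin inhibitor RCAN1, came first. Its level was 5.44, 4.55 and 6.13 in CsA replicates 1, 2 and 3 and 4.38, 3.73 and 4.58 in the control replicates. Each CsA array was above its own control, and CsA replicate 2 lay below control replicate 3, so the groups overlapped. The mean difference was 1.14 ± 0.37 (SD, n = 3 pairs), or 2.21-fold. At 12 h the pair differences of RCAN3 were 0.05, -0.16 and -0.08.

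SLC40A1 encodes ferroportin, which exports iron from cells. It stood at 6.34, 5.48 and 7.26 under CsA and 5.61, 4.91 and 6.18 in control, a mean difference of 0.79 ± 0.26 (SD, n = 3 pairs). Its replicates were ordered alike in both groups, with replicate 3 highest. At 12 h SLC40A1 was on the other side of 0 in all 3 pairs, at -0.39, -0.50 and -0.26. The 48 h minus 12 h difference was 1.18 with a standard error of 0.16 (limma adjusted p = 0.27), so it was not called.

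IFI44L, an interferon-induced gene, was at 5.30, 4.56 and 6.05 under CsA and 4.75, 3.19 and 4.45 in control. Its difference was 0.55, 1.37 and 1.61 in the 3 pairs and the same side of 0 at 12 h, at 0.15, 0.61 and 0.97. CTNNBIP1, which keeps beta-catenin from its DNA-binding partners, differed by 0.65, 0.90 and 0.64. CCNF, the cyclin of a ubiquitin ligase, differed by 0.53, 0.81 and 0.51, and its other probe set had the opposite sign. For CCNF the 12 h pairs were -0.23, -0.20 and -0.19.

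Other leading higher genes had pairs that lay close together. SCEL, a protein of the cornified envelope, differed by 0.51, 0.60 and 0.56, and its 2 other probe sets were also higher in all pairs. FOXP4, a forkhead transcription factor, was at 6.53, 6.45 and 6.40 under CsA and 6.05, 5.81 and 5.82 in control, with no overlap. HPN, the membrane serine protease hepsin, was at 7.98, 7.67 and 7.86 under CsA and 7.52, 6.93 and 7.16 in control, also apart. ING5, a reader of histone marks, differed by 0.64, 0.50 and 0.52. For the antisense RNAs PDCD4-AS1 and TRAM2-AS1 the differences were 0.60, 0.52 and 0.60 in the first and 0.45, 0.47 and 0.44 in the other, at levels near 4, where array signal is close to background.

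The remaining 4 of the 15 were LOC100505915, LOC100190986, CFAP263 and CBFA2T2. LOC100505915 differed by 0.46, 1.26 and 1.58 and CFAP263, a cilium protein, by 0.45, 0.60 and 0.59. LOC100190986 was widest in pair 3, with differences of 0.59, 0.45 and 2.20. CBFA2T2, a transcriptional corepressor, differed by 0.56, 0.45 and 1.12 and at 12 h by 0.92, 0.18 and 1.32, but 1 of its 2 other probe sets had a mean of the opposite sign. In 6 of the 15 higher genes the CsA and control arrays did not overlap, beside 210 of the 1417 genes higher in all pairs (10650 tested). The ranking used differences of these same arrays, which favours such a gap. All 15 had an adjusted p of 0.80, and the lowest adjusted p over the alternative fits was 0.25. At least 1 of the 6 arrays lay below 4, close to background, in 4 of the 15, RCAN3 and IFI44L among them.

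The leading lower genes started with DBP, a clock output transcription factor whose transcript cycles over the day. DBP was at 5.25, 3.21 and 2.75 under CsA and 6.07, 4.66 and 3.68 in control. Within each group the level was highest in replicate 1 and lowest in replicate 3, and each CsA array lay below its control. The mean difference was -1.06 ± 0.34 (SD, n = 3 pairs), 2.09-fold higher in control. Of the 6 arrays, 3 lay below 4 for DBP, CsA replicates 2 and 3 and control replicate 3. Signal there is close to background, which makes the fold uncertain. At 12 h the pairs were on the other side of 0, at 0.09, 0.10 and 0.36.

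HBEGF, a membrane-anchored ligand of the EGF receptor, was at 7.16, 9.16 and 8.71 under CsA and 8.13, 9.74 and 9.43 in control. Its difference was -0.76 ± 0.20 (SD, n = 3 pairs), and its other probe set was also lower in all 3 pairs. Replicate 1 was the low array of both groups, so the groups overlapped. HBEGF was also below 0 in every pair at 12 h, at -0.20, -0.17 and -0.18.

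Genes whose arrays lay apart between the groups included MAPRE3, which binds growing microtubule ends, at 5.30, 4.86 and 5.36 under CsA and 5.98, 5.78 and 6.00 in control. TSPAN2, a tetraspanin, was at 6.76, 6.61 and 6.62 under CsA and 7.29, 7.22 and 7.19 in control. FSD1 was at 6.97, 6.91 and 6.72 under CsA and 7.50, 7.40 and 7.30 in control. These 3 genes had pair differences within a narrow range, from -0.91 to -0.49. CYTL1, a small secreted protein, differed by -0.79, -0.49 and -1.02, ZFAND4 by -0.51, -0.49 and -0.96 and GPR137C by -0.47, -0.60 and -0.63, and all of them lay apart as well. With IGFBP5 this made 7 of the 15 lower genes, beside 264 of the 1723 genes lower in all pairs (10650 tested). The ranking used differences of these same arrays, which favours such a gap.

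IGFBP5, a secreted binder of insulin-like growth factors, was at 4.57, 4.48 and 2.87 under CsA and 5.04, 5.15 and 5.74 in control. CsA replicate 3 was its low array, and its other probe set had the opposite sign. CCNA1, a cyclin, differed by -0.84, -0.51 and -1.99, and CDKN2AIP, a binder of the p14ARF tumour suppressor, by -0.59, -0.47 and -1.39, both widest in pair 3. CHAC2, which breaks down glutathione, differed by -0.54, -0.68 and -0.51 and N4BP2L1 by -0.85, -0.94 and -0.80. The other two were ZNF557, a zinc finger gene, at -0.61, -0.96 and -0.59, and CRYBB2P1, a pseudogene whose probes may also catch its parent gene, at -0.84, -0.56 and -0.58. All 15 had an adjusted p of 0.80. At least 1 of the 6 arrays lay below 4 in 5 of the 15, DBP among them. Of the 30 leading genes, 16 of the means at 12 h were above 0 and 14 below.

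**Figure D2:**
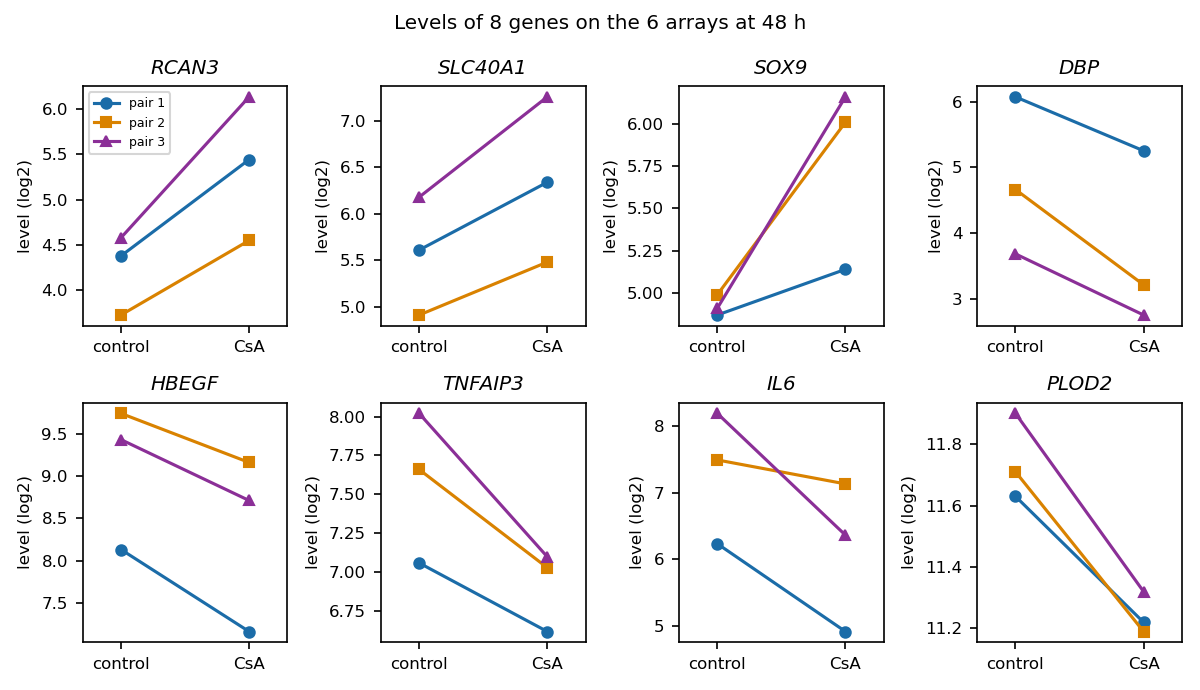
Log2 levels of 8 genes in control and CsA at 48 h, with lines joining the arrays of a pair (y axes differ between panels). Each line runs up for RCAN3, SLC40A1 and SOX9 and down for DBP, HBEGF, TNFAIP3, IL6 and PLOD2, and in SOX9 and PLOD2 the CsA points lie apart from the control points.

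The cyclophilins PPIA, PPIB and PPIF, to which the drug binds, were measured well above background. PPIA, cyclophilin A, was at 14.59, 14.78 and 14.72 under CsA and 14.60, 14.73 and 14.84 in control, with pairs on both sides of 0. PPIB, cyclophilin B of the ER, was at 13.82, 13.10 and 12.93 under CsA and 13.67, 13.07 and 12.52 in control, higher in every pair by 0.14, 0.03 and 0.40, and at 12 h by 0.73, 0.38 and 0.35. PPIF, cyclophilin D, was lower in every pair by small amounts, at -0.22, -0.04 and -0.20. RCAN1, the NFAT-induced calcineurin inhibitor, was at 8.48, 8.82 and 7.41 under CsA and 8.62, 8.72 and 8.79 in control. Only CsA replicate 3 stood low among its 6 arrays.

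Of the 20 tested genes of cyclophilins, calcineurin and NFAT, 4 were higher and 3 lower in all pairs, beside 13.3% and 16.2% of all genes. The list had a median difference of -0.03. Over all genes tested the median was -0.018, and it was 0.00, 0.001 and -0.033 in the 3 pairs. PPP3R1, the regulatory subunit of calcineurin, differed by -0.84, -0.34 and -2.08, with the opposite sign in its other probe set. Its level in CsA replicate 3 was 2.82, below 4 and close to background, so the difference in pair 3 is uncertain. PPIH, a cyclophilin of the spliceosome, differed by 0.15, 0.51 and 0.14, and CABIN1, a calcineurin inhibitor, by 0.22, 0.07 and 0.14. The other CABIN1 probe set did not have a mean of the same sign.

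The ATF4 list, which covers the response to missing amino acids, was the one in which 1 pair departed most. All 30 tested members had a mean difference below 0, with a median of -0.47, yet the pair medians were -0.05, 0.02 and -1.32. In pair 3, 20 members were lower by 1 or more and 0 were higher by 1 or more, and in pairs 1 and 2 none was lower by that much (0 and 0). Over all 10650 genes, 322 were lower and 117 higher by that much in pair 3. Members of one sign were 8 lower and 0 higher, beside 16.2% and 13.3% of all genes. Relative to the mean of the controls, the list stood at -1.59 in CsA replicate 3 and -0.21 in control replicate 3. The other 4 arrays lay between -0.01 and 0.16.

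Single genes of this list were among the widest gaps between pairs 3 and 1, for which the next 4 were picked after their values were seen. INHBE, a stress-induced inhibin subunit, was at 12.50, 11.71 and 5.78 under CsA and 12.19, 11.71 and 11.25 in control. SLC7A11, which imports cystine, was at 11.49, 11.41 and 7.70 under CsA and 11.32, 11.56 and 11.27 in control. CHAC1, which degrades glutathione, differed by -0.13, 0.46 and -4.36 and ALDH1L2, a mitochondrial folate enzyme, by 0.50, 0.10 and -3.38. In each of the 4 genes CsA replicate 3 was the lowest of the 6 arrays and lay well below the others.

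ATF3, a stress-induced repressor, was at 11.60, 11.52 and 8.04 under CsA and 11.75, 12.19 and 11.65 in control, lower in all pairs, at -0.16, -0.67 and -3.61. The window shown above, before the first RefSeq start of ATF3, carries the ATF4 with C/EBP letters. Windows before other starts of ATF3 were not examined, and a part of the letters in its level was not tested. DDIT3, which promotes death of stressed cells, was at 13.73, 13.29 and 9.66 under CsA and 13.82, 13.40 and 12.52 in control. CTH, which makes cysteine, differed by -0.07, -0.25 and -3.53, and CEBPB, a partner of ATF4, by -0.08, -0.16 and -1.23. In pairs 1 and 2 these 4 genes lay within 0.25 of 0, except ATF3 in pair 2. For DDIT3 the pair differences were -0.09, -0.11 and -2.86.

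The cytosolic aminoacyl-tRNA synthetases, several of which are ATF4 targets, showed the same division, with pair medians of 0.02, -0.03 and -0.74 over 17 members. Of these, 1 was higher and 5 lower in all pairs, beside 13.3% and 16.2% of all genes. TARS1, for threonine, differed by -0.25, -0.12 and -0.81. The list median of -0.23 was 0.01 without replicate 3. Hypoxia targets (pair medians 0.01, 0.02 and -0.37) and NRF2 targets (0.03, 0.04 and -0.29) were also low in pair 3 alone, and the NRF2 median of -0.04 was 0.02 without that pair.

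**Figure D3:**
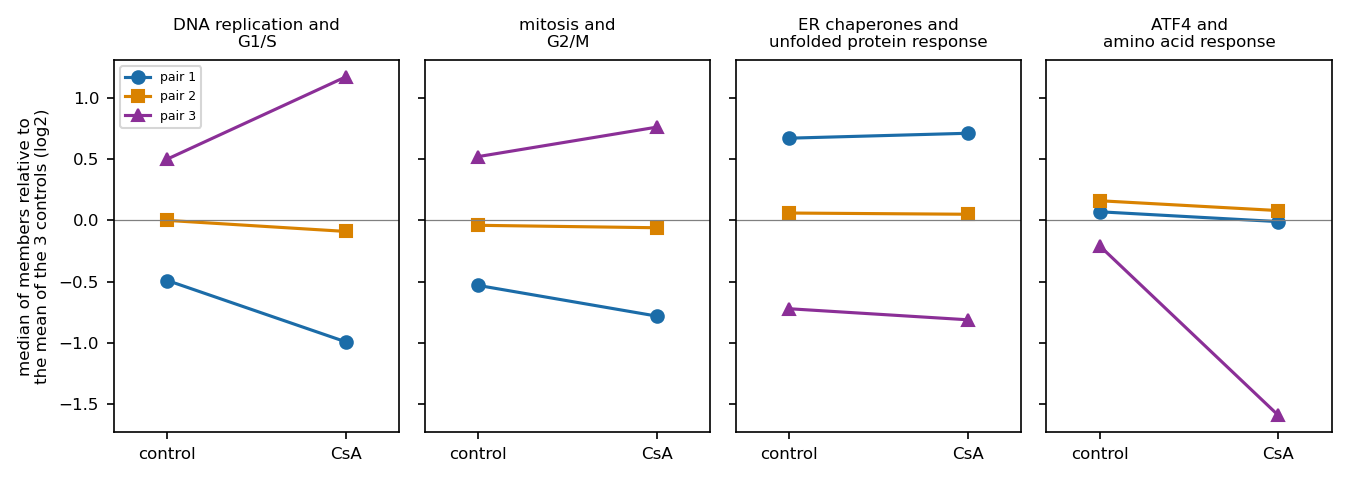
Median level of the members of 4 lists on each array at 48 h, relative to the mean of the 3 controls (log2), with lines joining the arrays of a pair. Replication and mitosis genes are lowest in replicate 1 and highest in replicate 3 in both groups, ER genes run the other way, and ATF4 genes are low in CsA replicate 3 at -1.59.

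Cell division genes separated the replicates of both groups, and the separation was wider among the CsA arrays. The 30 DNA replication and G1/S genes, which copy the genome, stood at -0.49, 0.00 and 0.50 in control replicates 1, 2 and 3 and at -0.99, -0.09 and 1.17 in CsA replicates 1, 2 and 3. Their pair medians were -0.47, -0.14 and 0.69. Members above 0 numbered 1 in pair 1, 6 in pair 2 and 27 in pair 3, and 27 were lower in pair 1 and higher in pair 3. Over all genes the pair medians were 0.00, 0.001 and -0.033, and 48.3% of genes had the same sign in pairs 1 and 3. No member was higher in all 3 pairs (0 of 30), and 2, RFC3 and E2F1, were lower, beside 13.3% and 16.2% of all genes.

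The next 3 genes were again picked for their gap after their values were seen. CCNE2, a cyclin of S-phase entry, was at 5.72, 6.23 and 9.42 under CsA and 6.57, 6.65 and 7.22 in control. MCM10, which helps start replication forks, was at 3.38, 4.83 and 7.44 under CsA and 4.63, 5.84 and 6.04 in control. CCNE1 was at 5.03, 5.20 and 7.43 under CsA and 5.68, 5.53 and 5.63 in control. Each was low in CsA replicate 1, high in CsA replicate 3 and in between in the controls.

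Mitosis genes had smaller differences of the same kind, with pair medians of -0.20, -0.04 and 0.17 over 28 members. Of these, 2 were higher and 4 lower in all pairs, near the 13.3% and 16.2% of all genes. The level of the mitosis list was -0.78, -0.06 and 0.76 in CsA and -0.53, -0.04 and 0.52 in control. PLK1, the polo kinase, was higher in all pairs by 0.46, 0.33 and 0.11, and CCNB1, the mitotic cyclin, lower, at -0.12, -0.06 and -0.07. The pairs thus lay on both sides of 0. The DNA replication median was -0.04 with all pairs, 0.20 without replicate 1 and 0.06 without replicate 2.

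The replicates differed in the same way over the whole set of genes. Replicate 3 minus replicate 1 had a spread across genes of 0.86 (SD) in CsA and 0.60 in control, and the differences correlated at 0.78 across genes although they share no array. At 1 or more in size were 2093 genes in CsA and 967 in control. For replicates 1 and 2 the spreads were 0.44 and 0.39 with r = 0.70, and for replicates 2 and 3 they were 0.66 and 0.46 with r = 0.66. At 12 h all such spreads lay between 0.25 and 0.29, with r from 0.40 to 0.60. Same-numbered CsA and control arrays thus deviated together at 48 h, over wider spreads than at 12 h.

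**Figure D4:**
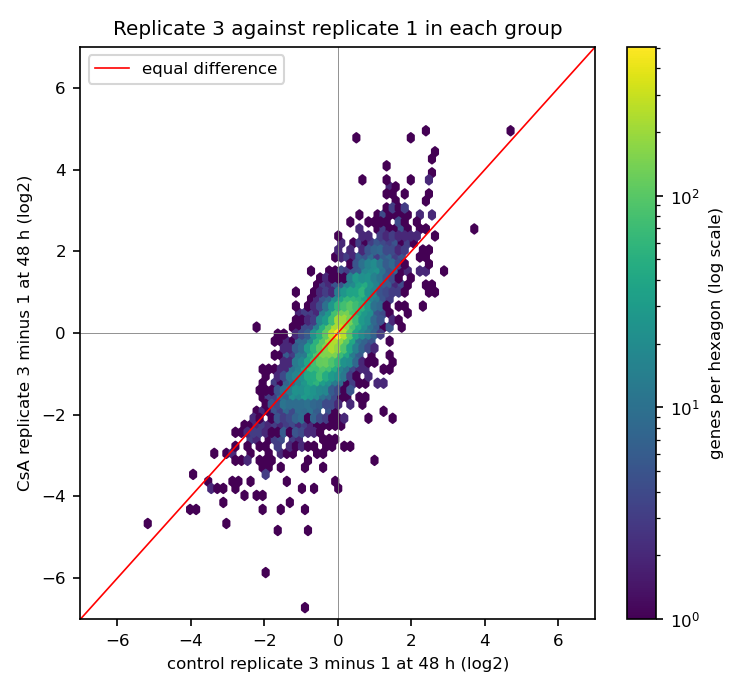
Replicate 3 minus replicate 1 for each tested gene at 48 h, in control (x axis, log2) and in CsA (y axis, log2), with colour for the number of genes on a log scale. The cloud rises with the red line of equal difference but is steeper, with a spread of 0.86 in CsA and 0.60 in control.

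ER chaperones and unfolded protein response genes, 29 tested, had 5 higher and 8 lower in all pairs, beside 13.3% and 16.2% of all genes. The list median was -0.11, with pair medians of 0.00, -0.15 and -0.08. At 12 h the medians of the same pairs were 0.56, 0.43 and 0.46, and 26 of the 29 were higher in all pairs, beside 18.9% of all genes at that time. HSPA5, the abundant Hsp70 of the ER lumen, was at 15.61, 15.28 and 13.49 under CsA and 15.61, 15.49 and 14.42 in control. Replicate 3 was its low array in both groups, lowest under CsA.

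MANF, a secreted ER stress protein, was lower in all pairs at 48 h, at -0.26, -0.33 and -0.28, and higher at 12 h by 0.87, 0.88 and 0.74. CREB3L2, an ER-anchored transcription factor, stayed above 0 at both times, at 0.22, 0.33 and 0.75 and, at 12 h, 1.35, 1.47 and 1.52. XBP1, which IRE1 splices during ER stress, differed by -0.17, -0.33 and -0.90 at 48 h, while its other probe set had the opposite sign. DNAJB11, a co-chaperone of HSPA5, differed by -0.14, -0.22 and -0.13. Replicate 1 was the high array and replicate 3 the low array of this list in both groups, which stood at 0.71, 0.05 and -0.81 in CsA and at 0.67, 0.06 and -0.72 in control.

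Whether the effect of CsA differed between the times was tested with limma over all 12 arrays, each pair of arrays blocked. No gene was called (0 of 10650, 0%), 967 genes had an unadjusted p below 0.05, and the smallest adjusted p was 0.12, which MANF had (48 h minus 12 h, -1.12 with a standard error of 0.10). With a variance trend and robust moderation limma called 2 genes, MANF (adjusted p = 0.0097) and DNAJB9, an ER co-chaperone (adjusted p = 0.039). Without replicate 3 at 48 h limma called 6, each lower at 48 h than at 12 h. They were CTH, INHBE, SDF2L1 and SLC7A11 (adjusted p = 0.035 for each) and CREB3L2 and MANF (0.047). These are ER and ATF4 genes. With all pairs and the plain moderation their adjusted p ran from 0.12 to 0.54, and DNAJB9 had 0.17.

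For INHBE the differences were 3.21, 3.63 and 4.09 in the 12 h pairs and 0.31, -0.01 and -5.47 in the 48 h pairs. For SLC7A11 they were 1.86, 1.85 and 1.86 at 12 h. Over the 30 ATF4 members the 12 h pair medians were 0.76, 0.41 and 0.61. In pairs 1 and 2 at 48 h the list was near 0, at -0.05 and 0.02.

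At 12 h, 2016 genes (18.9%) were higher and 2380 (22.3%) lower in all pairs. The times share no arrays. Of the genes higher at 48 h, 296 were also higher at 12 h, which is 20.9% of the 48 h list and 14.7% of the 12 h list, and 285 (20.1% and 12.0%) were lower at 12 h. Of those lower at 48 h, 406 (23.6% and 17.1%) were also lower at 12 h and 281 (16.3% and 13.9%) were higher. The higher genes at 48 h were thus spread over both directions at 12 h in near equal numbers.

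Cytosolic ribosomal proteins had the largest share of members higher in all pairs among the lists with 20 or more tested genes, 14 of 20 with 0 lower, beside 13.3% of all genes. The differences were slight, with a median of 0.06 and pair medians of 0.03, 0.05 and 0.10. RPL18 was at 14.63, 14.69 and 14.66 under CsA and 14.50, 14.56 and 14.47 in control. RPL3 was at 13.98, 14.01 and 13.96 under CsA and 13.88, 13.87 and 13.79 in control. In both genes the CsA arrays lay just above the controls. Ribosomal protein genes have many processed pseudogenes with nearly the same sequence, so their values are uncertain in the copy they measure.

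Coat proteins and ER-Golgi transport genes, which move cargo between the ER and the Golgi, had 11 of 26 members higher and 1 lower, beside 13.3% and 16.2% of all genes, with pair medians of 0.10, 0.10 and 0.00. COPZ1, a COPI coat subunit, differed by 0.28, 0.28 and 0.27, and its other probe set was also higher in all pairs. LMAN1, a cargo receptor for glycoproteins, was at 12.65, 11.84 and 11.77 under CsA and 12.25, 11.52 and 11.59 in control, with 2 other probe sets higher in all pairs. COPE differed by 0.21, 0.32 and 0.16 and KDELR3 by 0.18, 0.19 and 0.37. At 12 h 15 of the 26 were higher in all pairs, beside 18.9% of all genes.

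Interferon response genes had 7 of 22 members higher and 3 lower, beside 13.3% and 16.2% of all genes, with pair medians of 0.05, 0.00 and 0.15. PSMB9, an immunoproteasome subunit, was at 8.48, 6.98 and 7.73 under CsA and 7.94, 6.37 and 7.53 in control. IFIT3, an RNA-binding antiviral protein, differed by 0.18, 0.28 and 0.28, while IRF9, the DNA-binding part of the interferon signal complex, was lower, at -0.24, -0.29 and -0.38. The list thus held members of both signs.

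p53 targets had 3 of 15 higher and 0 lower, with TP53INP1, which promotes autophagy and death, at 7.55, 7.19 and 7.71 under CsA and 7.07, 6.89 and 7.07 in control, arrays apart. MDM2, the ubiquitin ligase for p53, differed by 0.26, 0.17 and 0.06. Of the BCL2 family and caspases, 2 of 16 were higher and 0 lower. GSTA4, a glutathione transferase, differed by 0.32, 0.30 and 0.59 and ABCC3, an efflux pump, by 0.16, 0.40 and 1.12. They belong to a list of 10 drug efflux and xenobiotic genes with 2 higher and 0 lower. Only 1 of the 2 other ABCC3 probe sets had a mean of the same sign. Over all genes 13.3% were higher and 16.2% lower.

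Genes that make or import cholesterol numbered 18, of which 10 were lower and 1 higher in all pairs, beside 16.2% lower over all genes. Their pair medians were -0.13, -0.13 and -0.54. NSDHL, an enzyme of sterol demethylation, was at 9.16, 9.63 and 8.94 under CsA and 9.41, 9.98 and 9.65 in control, with its other probe set also lower in all pairs. MVD, of the mevalonate pathway, differed by -0.12, -0.27 and -0.27 at 48 h and 0.40, 0.60 and 0.63 at 12 h. MSMO1 differed by -0.09, -0.19 and -0.68 and FDPS by -0.25, -0.06 and -0.33. At 12 h 12 of the 18 were higher in all pairs and 2 lower, beside 18.9% and 22.3% of all genes.

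Fatty acid synthesis was divided, with 1 of 9 higher and 3 lower, beside 13.3% and 16.2% of all genes. SREBF1, the transcription factor of lipid synthesis, was at 8.07, 8.42 and 8.06 under CsA and 7.68, 7.82 and 7.78 in control, with all CsA arrays above. ACSS2, which makes acetyl-CoA from acetate, was lower, at -0.43, -0.02 and -1.07, as was ACLY, which makes it from citrate, at -0.14, -0.01 and -0.34.

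Glucose uptake and glycolysis genes had 9 of 19 members lower and 0 higher, beside 16.2% and 13.3% of all genes, with pair medians of -0.24, -0.08 and -0.26. LDHA, lactate dehydrogenase A, was at 13.79, 13.88 and 14.15 under CsA and 14.12, 14.00 and 14.42 in control. HK1, hexokinase 1, differed by -0.40, -0.12 and -0.31, GPI by -0.25, -0.17 and -0.16 and SLC2A3, a glucose transporter, by -0.23, -0.22 and -1.27. Replicate 3 was the high array of LDHA and HK1 in both groups, and CsA lay below control in each pair.

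Nuclear respiratory chain subunits had 3 of 24 higher, near the 13.3% of all genes, and 1 lower, with pair medians of -0.05, 0.08 and -0.09. NDUFA1 differed by 0.15, 0.14 and 0.03 and COX7C by 0.08, 0.15 and 0.04. Beside the 16.2% of all genes that were lower in all pairs, proteasome subunits had 6 of 25 lower and 0 higher, with PSMD2 at -0.20, -0.12 and -0.15. Cytosolic heat shock proteins had 5 of 13 lower and 0 higher. HSPH1, an Hsp110 chaperone, was at 10.60, 10.83 and 10.54 under CsA and 10.93, 11.30 and 10.79 in control, and CRYAB, a small heat shock protein, at 11.31, 11.32 and 11.32 under CsA and 11.65, 11.39 and 11.91 in control.

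NF-kB targets and feedback genes had 6 of 17 members lower and 1 higher, beside 16.2% and 13.3% of all genes, with pair medians of -0.18, -0.01 and -0.05. TNFAIP3, the A20 protein that restrains NF-kB, was at 6.62, 7.03 and 7.10 under CsA and 7.06, 7.66 and 8.02 in control. Its mean difference was -0.66 ± 0.24 (SD, n = 3 pairs), 1.59-fold higher in control. The TNFAIP3 window shown above holds 2 of the NF-kB strings, and whether they bear on its level was not tested. ICAM1, an adhesion molecule, was at 8.84, 9.28 and 8.84 under CsA and 9.29, 9.36 and 9.35 in control, with arrays apart by a narrow gap. NFKBIZ, a nuclear IkB protein, was the higher member, at 0.07, 0.03 and 0.95.

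Of 11 tested chemokines and inflammatory cytokines, 3 were lower and 2 higher, beside 16.2% and 13.3% of all genes. IL6, a cytokine, was at 4.91, 7.13 and 6.36 under CsA and 6.23, 7.49 and 8.19 in control. The IL6 window shown above also holds the NF-kB string, a match of letters only. Replicate 1 was low in both groups and pair 2 differed least. CXCL8, a neutrophil chemokine, was at 12.32, 12.85 and 12.19 under CsA and 12.91, 13.47 and 12.51 in control, with its other probe set lower in all pairs too. At 12 h IL6 differed by -0.55, -0.46 and -0.47 and CXCL8 by -0.05, -0.24 and -0.33. IL32 was higher, at 0.10, 0.42 and 0.16, and so was CX3CL1, at 0.05, 0.13 and 0.60.

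Immediate early and MAPK feedback genes had 5 of 22 lower and 1 higher, beside 16.2% and 13.3% of all genes, with pair medians of -0.18, -0.06 and -0.32. DUSP1, a phosphatase that switches off MAP kinases, was at 10.06, 11.39 and 11.03 under CsA and 10.71, 11.73 and 11.59 in control. FOSL2 differed by -0.37, -0.24 and -1.06 and JUN by -0.45, -0.05 and -1.77, both parts of AP-1. Of the 4 other FOSL2 probe sets, 3 had a mean of the same sign. Of 9 EGF receptors and ligands, 3 were lower and 1 higher. Beside HBEGF, EREG, another ligand, was at 10.70, 11.10 and 7.78 under CsA and 10.89, 11.81 and 10.25 in control, lowest in CsA replicate 3.

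YAP and TAZ targets, which report cell spreading and density, had 4 of 14 lower and 0 higher, beside 16.2% and 13.3% of all genes. CCN2, a matrix signalling protein linked to fibrosis, was at 8.79, 10.59 and 11.14 under CsA and 9.63, 10.68 and 11.84 in control. Its relative CCN1 was at 11.50, 12.92 and 12.58 under CsA and 11.99, 12.97 and 13.27 in control. In both genes replicate 1 was low in each group, and pair 2 differed by only -0.08 and -0.05. AJUBA differed by -0.24, -0.33 and -0.82.

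TGF-beta targets had 2 of 14 higher and 2 lower, near the 13.3% and 16.2% of all genes. SMAD3, a signal carrier of the pathway, was higher by 0.12, 0.51 and 0.99 and LTBP2 lower, at -0.60, -0.09 and -0.05. The 12 mesenchymal genes had 2 higher and 1 lower, and SNAI1, a repressor of epithelial genes, was the lower one at -0.34, -0.22 and -0.47. Neither list had a common sign.

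Among 20 collagens, laminins and matrix enzymes, 5 were lower and 1 higher, beside 16.2% and 13.3% of all genes. PLOD2, which hydroxylates collagen lysines, was at 11.22, 11.19 and 11.32 under CsA and 11.63, 11.71 and 11.90 in control. Its arrays lay apart, and its other probe set was also lower in all pairs. ADAMTS1, a matrix protease, was at 8.19, 9.68 and 9.73 under CsA and 8.84, 9.96 and 10.35 in control. COL1A1 differed by -0.17, -0.45 and -0.14 and the inhibitor TIMP2 was higher, at 0.04, 0.38 and 0.41. Hyaluronan and matrix partners had 4 of 7 lower and 1 higher, with VCAN, a large proteoglycan, at 12.57, 13.12 and 13.08 under CsA and 13.02, 13.48 and 13.25 in control and 4 other probe sets lower in all pairs.

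Of 11 tested kidney injury markers, 6 were lower and 1 higher, beside 16.2% and 13.3% of all genes. SOX9, a transcription factor of tubule repair, was the higher one, at 5.14, 6.01 and 6.16 under CsA and 4.87, 4.99 and 4.91 in control, a mean difference of 0.85 ± 0.52 (SD, n = 3 pairs). All its CsA arrays lay above all controls, but its other probe set had the opposite sign, and at 12 h SOX9 differed by -0.36, -0.27 and -0.15. HAVCR1, the injury marker KIM-1, was at 9.35, 9.77 and 10.23 under CsA and 9.42, 9.78 and 10.42 in control. LCN2, the injury marker NGAL, was at 6.88, 5.26 and 4.72 under CsA and 6.33, 4.82 and 4.73 in control, above control in pairs 1 and 2 only. SOX4 was lower in all pairs, at -0.26, -0.58 and -0.27, and so was CLU, at -0.17, -0.12 and -0.07.

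Proximal tubule transporters and enzymes had 7 of 19 members tested, 3 of them lower and 0 higher, beside 16.2% and 13.3% of all genes. GATM, the first enzyme of creatine synthesis, was at 7.23, 7.75 and 7.62 under CsA and 7.58, 8.59 and 8.11 in control. SLC4A4, the basolateral bicarbonate carrier, differed by -0.16, -0.25 and -0.34, with 3 of its 4 other probe sets lower in all pairs, and CA2, a carbonic anhydrase, by -0.28, -0.41 and -0.07. At 12 h GATM was on the other side of 0, at 0.25, 0.30 and 0.05.

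Clock genes had 4 of 14 lower and 0 higher, beside 16.2% and 13.3% of all genes, with pair medians of 0.03, -0.13 and -0.59. Beside DBP, CRY1, a repressor of the clock, was at 10.05, 9.88 and 9.73 under CsA and 10.27, 10.48 and 10.24 in control, with arrays apart. NFIL3, which binds the same DNA element as DBP, was at 11.06, 11.29 and 9.04 under CsA and 11.16, 11.56 and 11.33 in control, low in CsA replicate 3 alone. NAD, tryptophan and amino acid breakdown genes had 6 of 11 lower and 2 higher. KYNU, of the kynurenine pathway, differed by -0.35, -0.56 and -0.08 and NAMPT, which makes NAD, by -0.06, -0.18 and -0.76. For KYNU, CsA replicates 1 and 2 were at 3.83 and 3.66, below 4 and close to background. Of the 3 other NAMPT probe sets, 2 had a mean of the same sign.

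Complement and acute phase genes had 3 of 9 lower and 0 higher, beside the same shares of all genes, with C1R, a complement protease, at 6.17, 6.34 and 6.75 under CsA and 6.54, 6.76 and 7.22 in control. The endothelin and prostaglandin pathway had 3 of 5 lower and 1 higher, and the WNT pathway 4 of 10 lower and 1 higher. DKK1, a secreted WNT inhibitor, differed by -0.33, -0.03 and -2.49. Metallothioneins and their regulators had 2 of 9 lower and 0 higher, with pair medians of -0.44, 0.20 and 0.19.

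Lysosome and autophagy genes had 6 of 24 lower and 0 higher, beside 16.2% and 13.3% of all genes. NPC1, which moves cholesterol out of lysosomes, differed by -0.27, -0.20 and -0.91, with the opposite sign in its other probe set, and GLA, a lysosomal galactosidase, by -0.61, -0.12 and -0.23. Ribosome biogenesis genes had 3 of 20 lower, near the 16.2% of all genes, and 0 higher. POLR1B, a subunit of RNA polymerase I, differed by -0.20, -0.17 and -1.07, but only 1 of its 3 other probe sets had a mean of the same sign. NRF2 targets had 3 of 18 in each direction, with AKR1C1, a ketosteroid reductase, at -0.21, -0.59 and -0.30. Hypoxia targets had 2 of 19 higher and 3 lower, with LOX, which cross-links collagen, at -0.24, -0.10 and -1.36.

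Epithelial junction and keratin genes had 2 of 20 higher and 3 lower, near the 13.3% and 16.2% of all genes. KRT8, a simple epithelial keratin, differed by 0.12, 0.08 and 0.34, CLDN1, a tight junction protein, by -0.21, -0.14 and -0.20 and PKP2, of desmosomes, by -0.03, -1.12 and -0.47. Integrins had 1 of 9 higher and 2 lower, with ITGA5, a fibronectin receptor chain, at -0.33, -0.12 and -0.67. Actin and contractility genes had 1 of 16 higher and 2 lower. Of 9 glucocorticoid-responsive genes, 3 were higher and 1 lower, and FKBP5, a co-chaperone of the receptor, differed by 0.03, 0.04 and 0.58. ANGPTL4, another of the 3 higher, lay below 4 on all 6 arrays at 48 h, close to background. D cyclins and CDK inhibitors had 1 of 14 in each direction, arrestin-domain relatives of TXNIP 2 of 6 higher and 1 lower, polyadenylated histones 2 of 8 higher and 0 lower, and nephron transcription factors 0 of 3.

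**Figure D5:**
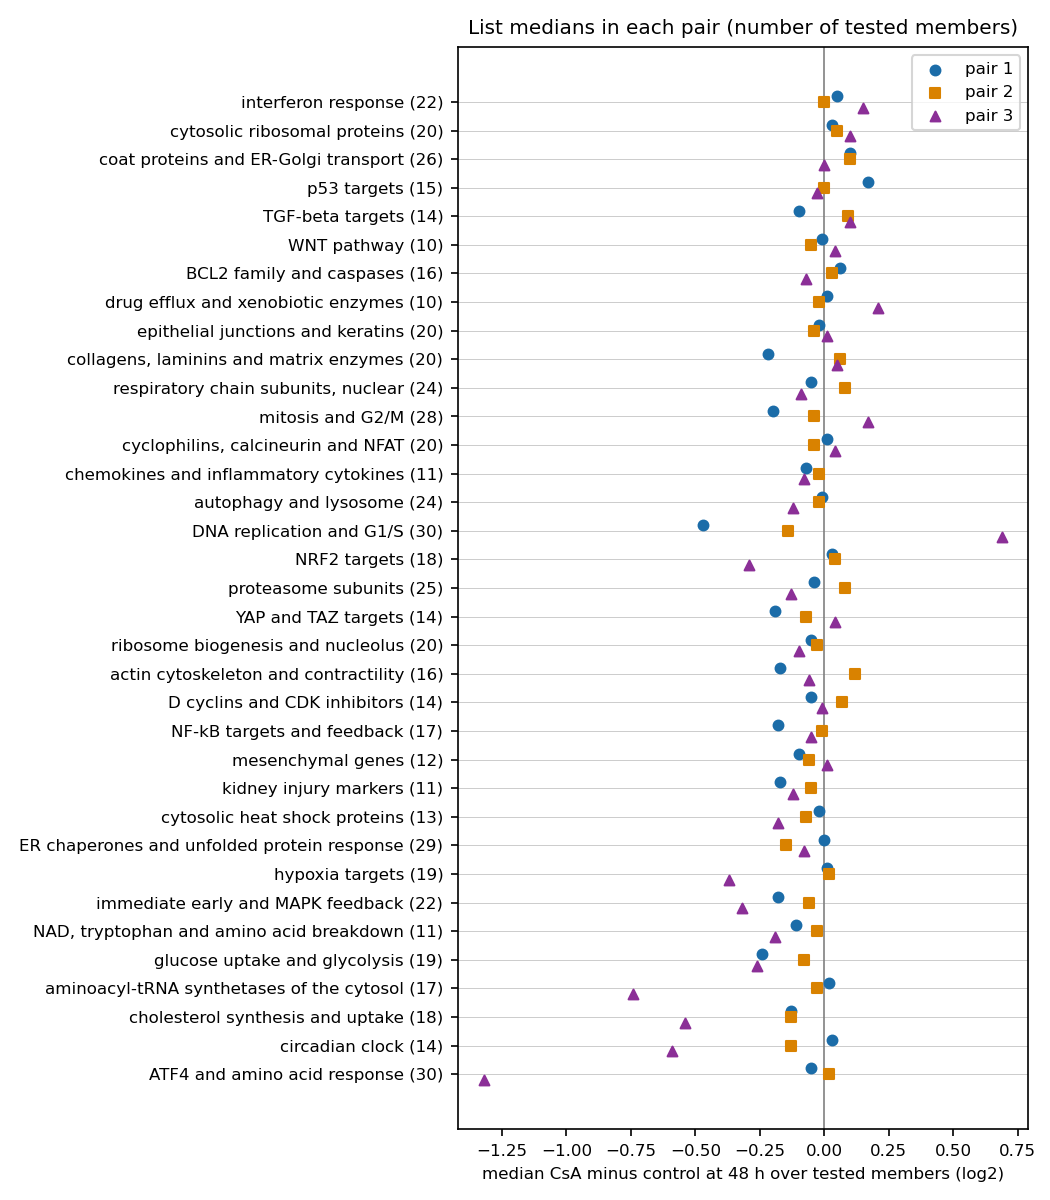
Median CsA minus control at 48 h (log2, x axis) over the tested members of each list with 10 or more tested genes, with circles, squares and triangles for pairs 1, 2 and 3 and the number of tested members in brackets. Pair 3 stands far from the other pairs for the ATF4 list (-1.32), the tRNA synthetases (-0.74) and DNA replication (0.69).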

How the data were processed

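The 6 arrays at 48 h were compared, with the 6 at 12 h beside them. The deposited values are log2 levels, made by the authors with GCRMA, per the submitters' processing notes, whose version is not given in the sources used here. GCRMA adjusts background by probe sequence and normalises arrays by quantiles, which sets array distributions alike. The values were used as deposited.

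Of 54675 probe sets, 62 control probe sets were left out, 41091 had 1 gene symbol in the platform annotation, 1801 had several and 11721 none, and 41037 matched RefSeq gene IDs, with 0 symbols updated. Each of 19775 symbols was represented by its brightest probe set (by mean over 12 arrays), and 10650 genes above 4 on at least 3 arrays were tested. Levels of different genes come from different probes and are not compared. The number of arrays limits the precision.

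Arrays were paired by replicate number, as the comparison prescribes. What the numbers mean is not in the labels. The deviations of same-numbered CsA and control arrays from their group means correlated across genes at 0.78, 0.54 and 0.74 at 48 h and at 0.36, 0.52 and 0.59 at 12 h, so the numbers were taken as pairs. limma 3.58.1 in R 4.3.3 was fitted with pairs as a block, on the 48 h arrays alone (2 residual degrees of freedom, 2.6 prior) because the median SD of a gene was 0.29 and 0.21 in CsA and control at 48 h and 0.12 in both at 12 h. The 48 h minus 12 h difference was fitted on 12 arrays (4 residual, 2.9 prior). Tests were two-sided and used eBayes with no trend, and p-values were adjusted over all genes by Benjamini-Hochberg, with a threshold of 0.05. The scripts were tested on simulated data. Python 3.11.15 with pandas 2.3.3 and matplotlib 3.10.9 made counts and plots.

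Named genes are the 15 higher and 15 lower genes whose smallest pair difference was largest, up to 4 members of one sign with the highest rank in each of 54 lists (936 names), and HSPA5, DDIT3, LCN2, HAVCR1, RCAN1, PPIA, PPIB and PPIF. The members and lists were chosen with earlier results of these data known. Promoter sequences are from RefSeq, GRCh38.p14, with the first window of each gene used. Alternatives were no block, a variance trend with robust moderation, all 12 arrays in the spread, other filters, every probe set, centred arrays and leaving out each pair.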

Additional observations from a re-analysis of the deposited data

Results flagged for a closer look

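In 5 lists all 3 pair medians lay on one side of 0 at 48 h and on the other at 12 h, although the ER median of pair 1 at 48 h and the NAD median of pair 3 at 12 h rounded to 0.00. The difference between the times was not tested for a list. The ER chaperones and unfolded protein response had a median of -0.11 at 48 h and 0.48 at 12 h, and cholesterol synthesis and uptake -0.23 and 0.15. Fatty acid synthesis had -0.06 and 0.14, autophagy and lysosome -0.04 and 0.09, and NAD, tryptophan and amino acid breakdown -0.18 and 0.05.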

How the results depend on the processing

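At 48 h limma called 0 genes under the main setting and all 11 alternatives. Without the pairing block it had 104 genes at an unadjusted p under 0.05, against 536 with it. With all 12 arrays setting the spread the number was 1308 and the smallest adjusted p was 0.25. For the 48 h minus 12 h difference limma called 0 genes without the pairing block (164 at an unadjusted p under 0.05) and 2 with a trend and robust moderation. Leaving out 1 pair gave 0 to 6 calls, with the 6 without replicate 3. With every probe set of 1 gene symbol kept, 3138 of 41091 probe sets were higher in all pairs and 8482 lower, and with no filter 3943 genes were lower. With no filter, 29.2% of the genes of one sign were higher, and 27.0% of the probe sets of one sign with every probe set, against 45.1% of genes. Leaving out 1 pair, which asks for one sign in only the other two, gave 2232 to 2923 higher and 2906 to 3281 lower. Of 2134 values of the 195 named genes, 1 changed sign, PPIA (-0.03; -0.06 to 0.01 when 1 pair was left out, above 0 without replicate 3), and 0 were called. Of 53 list medians, 12 took the other sign without replicate 3, 6 without replicate 1, 3 without replicate 2 and 4 under a filter or centring. The cause was not tested. Genes near 4 lie close to background, which limits their differences.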
